A study of Mus musculus with 11 samples.

Results

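The genes described are the nuclear genes for the respiratory chain and ATP synthase in mouse aortic valves. They were chosen by symbol from the gene table: those of complexes I to V and cytochrome c, with related genes that share their name stems. The rule matched 94 of the 46983 genes counted. Of these, 84 encode subunits or cytochrome c and 10 do not (7 complex I assembly factors, Cox7a2l, Atp5s and Atp5sl). By complex there were 36 genes for complex I, 4 for complex II, 9 for complex III, 19 for complex IV, 15 for complex V and 1 for cytochrome c. The filter on low counts passed 92 of the 94; Cox7b2, with 6 counts in all 11 libraries together, and Cox8c, with 1, were not tested.

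RNA sequencing was done on whole aortic valves of wild type mice 48 hours after surgery, with 1 mouse per library. Injured valves had their endothelial layer damaged with a wire in the living animal, and sham surgery was the control. The young animals were aged 3 to 4 months and the aging animals 16 to 18 months. Young valves gave 3 sham and 3 injured libraries and aging valves 3 sham and 2 injured libraries, each numbered as labelled. The comparisons ask what injury changed at each age, what age changed with and without injury, and whether the injury effect differed with age.

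The respiratory chain sits in the inner mitochondrial membrane. Complexes I and II take electrons from NADH and succinate, complex III passes them to cytochrome c, complex IV hands them to oxygen, and complex V, the ATP synthase, makes ATP from the proton gradient. All but a few of the subunits come from nuclear genes, and complex II has no other kind. Cardiac muscle is packed with mitochondria, whereas valve interstitial and endothelial cells hold fewer. Some complex IV subunits exist as a heart and skeletal muscle isoform and a broadly expressed one, made from separate genes: Cox6a2 and Cox6a1, Cox7a1 and Cox7a2, Cox8b and Cox8a.

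Libraries held 27124000 to 36353474 counts. Levels are CPM, deposited counts scaled to library size with edgeR's TMM factors. The valve markers Dcn, Lum, Postn, Cdh5 and Pecam1 had counts in all 11 libraries, the lowest being 986 for Cdh5. Cardiac muscle transcripts were in every library too, and 22 sarcomere and calcium handling genes summed to between 12696 and 52051 CPM. Of the skeletal muscle genes, Myh4 had 14 counts in all, Myh2 21, Myh1 91, Mylpf 136 and Tnnt3 1133. Tnnt3 had counts in every library, at 0.321 to 6.60 CPM. Ckm and Acta1, made in the heart as well, had 67552 and 85254 counts. Of the adipocyte genes, Ucp1, known from brown fat, had 38 counts and Cidea 4110. Counts were found for 18641, 18642 and 19015 genes in young sham 1 and in the aging injured libraries 1 and 2, against 20411 to 22533 in the other 8. In bulk tissue, fewer cells of a type and less RNA per cell cannot be told apart.

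The promoters of both isoforms of 2 pairs, and of cytochrome c, are shown first because the results turn on how these genes differ among libraries. Each line is the RefSeq window on GRCm38.p6 from 250 bases before to 50 after the transcription start, 5′ to 3′ on the gene's own strand. Capitals mark matches to the motifs searched on both strands. The windows are chr7:30183921-30184220 (plus strand) for Cox7a1, chr9:79759804-79760103 (minus) for Cox7a2, chr7:140900397-140900696 (minus) for Cox8b, chr19:7217567-7217866 (minus) for Cox8a and chr6:50566520-50566819 (minus) for Cycs.
Cox7a1: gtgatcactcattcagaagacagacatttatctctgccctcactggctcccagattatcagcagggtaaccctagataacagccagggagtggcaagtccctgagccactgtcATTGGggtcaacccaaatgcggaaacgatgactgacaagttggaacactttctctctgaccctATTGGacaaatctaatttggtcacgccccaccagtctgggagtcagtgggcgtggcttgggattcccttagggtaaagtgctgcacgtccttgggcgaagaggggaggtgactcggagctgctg
Cox7a2: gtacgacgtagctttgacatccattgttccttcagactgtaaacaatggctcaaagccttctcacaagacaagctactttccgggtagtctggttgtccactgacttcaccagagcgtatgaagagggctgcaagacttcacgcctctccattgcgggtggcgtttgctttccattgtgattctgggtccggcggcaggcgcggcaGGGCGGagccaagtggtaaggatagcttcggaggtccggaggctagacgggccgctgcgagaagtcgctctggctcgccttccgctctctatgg
Cox8b: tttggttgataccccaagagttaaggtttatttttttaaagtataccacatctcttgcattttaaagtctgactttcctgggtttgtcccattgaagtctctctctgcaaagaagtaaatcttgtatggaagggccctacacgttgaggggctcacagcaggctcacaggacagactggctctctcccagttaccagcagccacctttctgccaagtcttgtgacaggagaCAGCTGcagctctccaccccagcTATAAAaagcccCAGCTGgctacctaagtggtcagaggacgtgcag
Cox8a: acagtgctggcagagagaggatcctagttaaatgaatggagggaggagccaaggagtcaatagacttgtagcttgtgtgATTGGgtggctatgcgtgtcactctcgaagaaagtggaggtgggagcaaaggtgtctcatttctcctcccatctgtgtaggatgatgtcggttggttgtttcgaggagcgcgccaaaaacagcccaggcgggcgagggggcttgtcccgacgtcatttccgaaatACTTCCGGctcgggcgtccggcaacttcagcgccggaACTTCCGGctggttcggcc
Cycs: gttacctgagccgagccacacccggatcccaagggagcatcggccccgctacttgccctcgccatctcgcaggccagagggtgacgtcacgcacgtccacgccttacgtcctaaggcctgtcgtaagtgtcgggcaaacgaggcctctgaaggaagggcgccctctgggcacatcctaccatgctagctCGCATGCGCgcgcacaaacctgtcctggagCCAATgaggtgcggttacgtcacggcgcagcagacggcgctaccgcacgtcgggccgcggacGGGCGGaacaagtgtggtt
In the Cox8b window the capitals are 1 TATA box (TATAAA) and 2 E-boxes (CAGCTG). Cox8a has 2 GABP motifs (CCGGAAGT) and 1 CCAAT box, Cox7a1 has 2 CCAAT boxes, Cox7a2 has 1 Sp1 motif (GGGCGG), and Cycs has 1 NRF1 motif (GCGCANGCG), 1 CCAAT box and 1 Sp1 motif. The muscle isoform windows thus shared no matched motif with those of their broadly expressed counterparts.

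RefSeq windows were matched for 77 of the 94 genes; Cox6a2, Cox4i1, Cox4i2, Ndufb9, Ndufs1, Sdhc, Atp5a1 and 10 others had none in the table used. The 83 windows of these genes were read against 32851 windows of the same length. NRF1, a regulator of nuclear genes for mitochondria, had its motif GCGCANGCG in 28.9% of the respiratory chain windows and in 6.25% of all windows. AAGATGGCG, the YY1 motif, stood in 10.8% against 1.40%, and AAGGTCA, the motif of estrogen-related receptors, in 9.64% against 4.72%. CCGGAAGT, bound by GABP, was in 6.02% against 3.89%, the Sp1 motif in 43.4% against 35.7% and CCAAT in 43.4% against 37.4%. The TATA box was in 9.64% of these windows and 13.6% of all, the E-box CAGCTG in 7.23% and 16.3%, and the MEF2 motif in 0% and 3.19%. Median GC content was 58.3% in the respiratory chain windows and 52.7% in all, and no window of the first set had overlapping matches of different motifs. These shares are descriptions, and a match does not show that a factor binds.

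Levels that can be compared between genes are the deposited RPKM values, which are scaled by gene length, and 92 of the 94 genes had them. Cox6a2, the muscle isoform of a complex IV subunit, had the highest mean over the 11 libraries at 467 RPKM. Within complex V the highest was Atp5a1, the alpha subunit of the catalytic head, at 352 RPKM. Ndufb9, an accessory subunit, led complex I at 179 RPKM. Uqcr10, a small subunit, led complex III at 133 RPKM, and Sdha, the flavoprotein that oxidises succinate, led complex II at 114 RPKM. Median levels per gene were 43.8 RPKM for complex I, 61.9 for complex II, 99.1 for complex III, 98.3 for complex IV and 92.1 for complex V. The 10 genes that are not subunits had a median of 8.79 RPKM, and Cox7a2l, a factor that joins complexes III and IV into supercomplexes, was the highest of them at 108 RPKM. Cycs, somatic cytochrome c, stood at 25.6 RPKM.

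The highest values gathered in few libraries. Of the 92 tested genes, 58 had their highest CPM in young sham 3 and 24 in young injured 3. The lowest CPM fell in aging injured 2 for 23 genes, in young injured 1 for 19, in aging sham 3 for 17 and in aging sham 2 for 14. Where the highest and lowest values of all genes fell was not counted. All 94 genes together took 0.751% to 1.49% of a library's counts. The mitochondrially encoded genes, which supply the remaining subunits, took 5.10% to 13.78%.

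Injury in young valves was read first. Nuclear respiratory chain genes were lower on average in injured than in sham young valves, but 0 of 92 were called. A gene was called at an adjusted p under 0.1 with a fold change over 2, and 0.418% of all 19366 genes tested were called in this comparison. The members had a median log2 fold change of -0.34, against 0.01 over all genes, and 86 of 92 were below 0. Leaving out 1 library moved the median between -0.18 (without young injured 1) and -0.68 (without young injured 3). At an unadjusted p under 0.05 edgeR's quasi-likelihood test counted 0 of the 92, against 9.19% of all genes. DESeq2 called 0 members, against 0.871% of all genes higher and 0.188% lower. All genes of complexes I, II, III and V were below 0, with medians of -0.36, -0.39, -0.33 and -0.38. The 22 cardiac genes were all below 0 as well, with a median of -0.69 and 0 called.

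Cox8b, the muscle isoform of the smallest complex IV subunit, had the lowest p among them. It stood at 29.3, 47.6 and 60.6 CPM in young sham valves and at 10.4, 14.9 and 45.7 CPM in young injured valves. Young injured 1 and 2 lay below every sham library, and young injured 3 lay among them, so the groups overlapped. The log2 fold change was -0.95 ± 0.49 (SE; n = 3 and 3; edgeR adjusted p = 0.604). Ndufb4, an accessory subunit of complex I, followed with a log2 fold change of -0.42 ± 0.23 and an edgeR adjusted p of 0.625. Ndufv1, the complex I subunit that binds NADH, had -0.51 ± 0.28 with an edgeR adjusted p of 0.630.

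Cox6a2 showed the same arrangement of libraries. Its levels were 340, 429 and 598 CPM in young sham and 115, 155 and 478 CPM in young injured valves, a log2 fold change of -0.87 ± 0.52 (edgeR adjusted p = 0.677). Cox7a1, the muscle isoform of another small subunit, was at 30.6, 64.7 and 80.4 CPM in sham and 13.6, 22.4 and 65.6 CPM in injured valves, with -0.79 ± 0.54 (edgeR adjusted p = 0.725). In each of the 3 muscle isoforms, young injured 3 lay within the sham range and the other injured libraries lay under it. Without young injured 3, 9 genes were called, all lower in injured valves, where 0.714% of all genes were called higher and 1.61% lower. They were Cox8b at -1.85 ± 0.37, Cox6a2 at -1.76 ± 0.43, Cox7a1 at -1.70 ± 0.45, and Ndufs1, Ndufa10, Uqcrfs1, Atp5a1, Atp5b and Atp5g1 at -1.04 to -1.18. These 9 are named because of that result. Young injured 3 also had a cardiac muscle score (the centred mean log2 CPM of the 22 cardiac genes) of 1.21, against -0.94 and -0.84 in the other young injured libraries. With the score added to the fit, described below, the median over the 92 genes was 0.02. Injury and cardiac muscle content cannot be told apart in this comparison.

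Cox7a2l was at 115, 130 and 134 CPM in young sham and 109, 112 and 107 CPM in young injured valves. Its log2 fold change was -0.21 ± 0.12 with an edgeR adjusted p of 0.673. The groups did not overlap, but the gap did not pass the test, and such gaps were not counted over all genes. Cox4i2, an isoform known from lung, was among the 6 genes above 0, with 7.51, 16.4 and 12.1 CPM in young sham and 17.9, 18.6 and 12.3 CPM in young injured valves. Its log2 fold change was 0.44 ± 0.30 (edgeR adjusted p = 0.726).

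In aging valves no difference between injured and sham levels passed the test. The median log2 fold change was 0.03 over the 92 genes and -0.01 over all genes, with 52 genes above 0. In edgeR's test 0 of the 92 were called, with 0% of all genes, and 0 had an unadjusted p under 0.05 (8.83% of all genes). DESeq2 called 0 members, against 0.269% of all genes higher and 0.967% lower. Cox6a2 was at 285, 103 and 134 CPM in aging sham valves and at 198 and 332 CPM in aging injured valves. The groups overlapped, with a log2 fold change of 0.61 ± 0.57 (edgeR adjusted p = 0.842). Ndufs6 and Ndufa2, accessory subunits of complex I, had log2 fold changes of -0.56 ± 0.31 and -0.30 ± 0.17, and Cox7a2l -0.25 ± 0.14, with edgeR adjusted p-values of 0.645, 0.649 and 0.651. The groups did not overlap in these 3 genes, and such gaps were not counted over all genes. Ndufs6 was at 42.4, 34.5 and 30.1 CPM in aging sham and 22.2 and 26.1 CPM in aging injured valves. Ndufa2 was at 51.5, 43.8 and 37.7 against 35.1 and 37.1 CPM, and Cox7a2l at 111, 112 and 108 against 106 and 79.8 CPM. Without aging injured 1, which leaves that group with 1 library assumed to vary like the others, Ndufa4l2 had a log2 fold change of 1.41. Ndufa4l2, a paralog of Ndufa4 induced by low oxygen, was at 5.43 CPM in the library left out and at 23.4 CPM in aging injured 2, against 7.68 to 9.47 CPM in aging sham valves.

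Age in sham valves was read next. Members were lower in aging than in young sham valves by a median of -0.51 on the log2 scale, against 0.02 over all genes, and 88 of 92 were below 0. None passed the threshold: edgeR's test called 0 of 92, against 0.0258% of all genes. DESeq2 called 0 members, against 0.413% of all genes higher and 0.332% lower. At an unadjusted p under 0.05 there were 28 of the 92 in edgeR's test, all subunits, while 9.19% of all genes reached that level. That count was 0 without young sham 3, 1 without aging sham 2 or aging sham 3, 7 without young sham 2, and 52 to 54 without aging sham 1, young sham 1 or young injured 3. Medians were -0.48 for complex I, -0.63 for complex II, -0.62 for complex III, -0.61 for complex IV and -0.60 for complex V, and -0.18 for the genes that are not subunits. Markers of other tissues moved with this comparison: all 22 cardiac genes were below 0, with a median of -1.23, and all 6 smooth muscle genes above 0, with a median of 0.65, with 0 called in either list. A fit with the cardiac muscle score added is given below, and age and cardiac muscle content cannot be told apart in this comparison. The part of smooth muscle in the members' values was not tested.

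Ndufb11, an accessory complex I subunit, had the smallest p, with a log2 fold change of -0.51 ± 0.17 (edgeR adjusted p = 0.441). Atp5c1, the gamma subunit of the rotating stalk, had -0.78 ± 0.28 (edgeR adjusted p = 0.462). Atp5g2, which encodes the ring subunit c, was at 60.8, 62.5 and 77.2 CPM in young and 58.8, 46.6 and 49.2 CPM in aging sham valves. All aging values lay below the young ones, with a log2 fold change of -0.37 ± 0.14 that did not pass the test (edgeR adjusted p = 0.470). Cox6a2 was at 340, 429 and 598 CPM in young sham and 285, 103 and 134 CPM in aging sham valves, again without overlap, and had the lowest value of all members at -1.39 ± 0.53 (edgeR adjusted p = 0.491). Cox6b2, an isoform known from testis, had the highest value, 0.97 ± 0.43 (edgeR adjusted p = 0.535), at only 1.10 to 2.15 CPM in young and 2.37 to 4.69 CPM in aging sham valves.

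Complex II is the complex whose subunits all come from nuclear genes. Sdha was at 367, 576 and 659 CPM in young sham, 255, 293 and 583 in young injured, 397, 281 and 304 in aging sham and 377 and 320 in aging injured valves. Sdhb, the iron-sulfur subunit, was at 103, 155 and 160 CPM, then 68.1, 75.4 and 167, then 113, 68.2 and 69.2, then 98.7 and 71.5 in the same order of groups. In both genes young injured 3 lay within or above the young sham range, and young injured 1 was the lowest of all 11 libraries. The membrane anchors Sdhc and Sdhd ranged from 81.1 to 169 CPM and from 59.9 to 127 CPM. Between young and aging sham valves the 4 genes had log2 fold changes of -0.32 to -0.74, with edgeR adjusted p-values of 0.530 to 0.771.

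Neither age in injured valves nor the interaction of injury with age gave a called member. In injured valves the median log2 fold change from young to aging was -0.19, against -0.04 over all genes, and 71 of 92 were below 0. EdgeR's test called 0 of 92, against 0.062% of all genes, with 2 at an unadjusted p under 0.05 (12.5% of all genes). DESeq2 called 0 members, against 0.65% of all genes higher and 1.7% lower. Cox4i2 was at 17.9, 18.6 and 12.3 CPM in young and 9.91 and 7.60 CPM in aging injured valves, without overlap, a log2 fold change of -0.89 ± 0.34 (edgeR adjusted p = 0.330). Ndufaf3, a complex I assembly factor, had 0.63 ± 0.27 (edgeR adjusted p = 0.374), and Ndufs6 had -0.61 ± 0.31 (edgeR adjusted p = 0.454). Without young injured 3 the median over the 92 genes was 0.22.

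The interaction, the log2 fold change of injury in aging valves minus that in young valves, had a median of 0.35 over the 92 genes and -0.05 over all genes, and 82 were above 0. It shares its sham and injured libraries with the comparisons above. Here too edgeR's test called 0 of 92, with 0% of all genes, and 2 had an unadjusted p under 0.05 (7.86% of all genes). DESeq2 called 0 members, against 0.0923% of all genes above 0 and 0.572% below. Cox8a, the broadly expressed counterpart of Cox8b, had the smallest p at 0.50 ± 0.22 (edgeR adjusted p = 0.619). Ndufaf3 had 0.81 ± 0.36 (edgeR adjusted p = 0.624) and Ndufb4 0.70 ± 0.34 (edgeR adjusted p = 0.663). Without young injured 3 the median was 0.72.

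The members were then read against cardiac muscle content. The cardiac muscle score of a library is the mean log2 CPM of the 22 cardiac genes, centred over the 11 libraries; no respiratory chain gene is in it. It was 0.28, 0.91 and 1.27 in young sham, -0.94, -0.84 and 1.21 in young injured, 0.48, -1.12 and -0.65 in aging sham, and -0.27 and -0.33 in aging injured valves. The median level of complex V was highest, at 7.82 and 7.74 log2 CPM, in young sham 3 and young injured 3, the libraries with the highest scores. A slope of each gene on the score was fitted with the 4 group means in the model, so that it measures differences among libraries of the same group. A slope of 1 means that a gene doubles when the cardiac genes double.

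**Figure D1:**
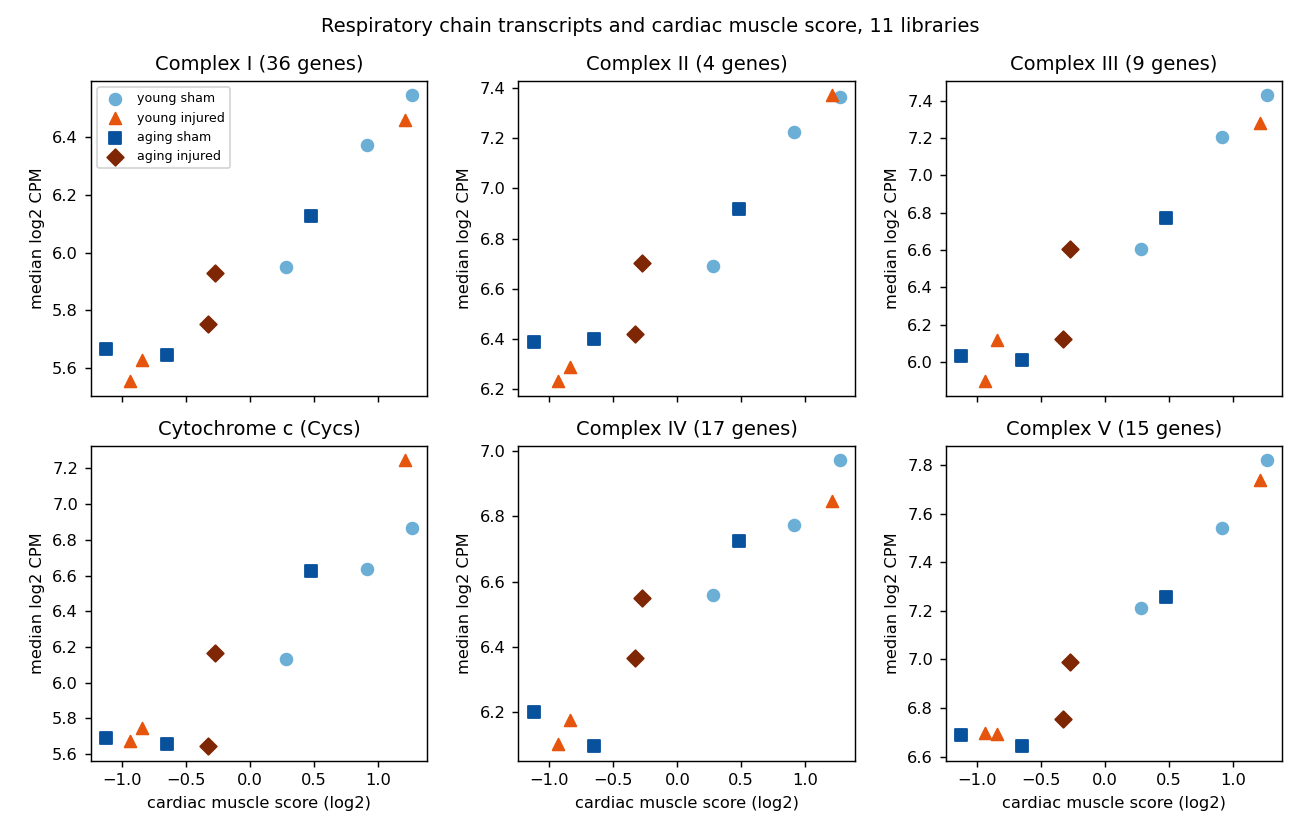
Median log2 CPM of the genes of each complex, and the log2 CPM of Cycs, on the vertical axes against the cardiac muscle score on the horizontal axes, with 1 point per library and colour and shape for the 4 groups. Young sham 3 and young injured 3, with scores of 1.27 and 1.21, are at the upper right in every panel, away from the other young injured libraries.

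Within groups, the nuclear respiratory chain genes were higher in libraries with more cardiac muscle RNA. A slope was called at an adjusted p under 0.1. Of the 92 genes, 69 had a called positive slope and 0 a called negative one, while 4.71% of all genes tested had a positive and 1.72% a negative call. The median slope was 0.40, against -0.02 over all genes, and 87 of 92 were positive. Among subunits and cytochrome c 68 of 82 were called, and among the 10 that are not subunits 1 was.

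Electron entry through complex I was represented by 29 called genes of 36, with a median slope of 0.39. All 7 core subunits, which carry the cofactors, were called, and 22 of 29 accessory subunits were. Ndufs1, a core iron-sulfur subunit, had the steepest slope at 0.61 ± 0.06 (edgeR adjusted p = 0.000193). Its levels were 166, 224 and 248 CPM in young sham, 93.2, 97.6 and 252 in young injured, 164, 97.5 and 103 in aging sham, and 149 and 116 in aging injured valves. The high libraries were young sham 3 and young injured 3, those of the highest score. Ndufa2, an accessory subunit, had the shallowest slope at 0.17 ± 0.06 (edgeR adjusted p = 0.210). Of the 7 assembly factors, which help build complex I without staying in it, only Ndufaf4 was called, at 0.47 ± 0.11 (edgeR adjusted p = 0.0276), and the median of the 7 was 0.20.

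All 4 complex II genes were called, from 0.43 ± 0.07 for Sdhc to 0.57 ± 0.07 for Sdhb. All 9 complex III genes were called, from 0.37 ± 0.10 for Uqcrh, the hinge protein, to 0.67 ± 0.06 for Uqcrfs1, the Rieske iron-sulfur protein. Uqcrfs1 was at 111, 148 and 176 CPM in young sham, 59.2, 68.5 and 178 in young injured, 109, 58.9 and 64.4 in aging sham, and 82.2 and 89.8 in aging injured valves. Its edgeR adjusted p, 5.01e-05, was the smallest of the members together with that of Atp5g1. Cycs had a slope of 0.71 ± 0.07 (edgeR adjusted p = 0.000217). It stood at 70.2, 99.5 and 117 CPM in young sham, 50.9, 53.5 and 152 in young injured, 98.6, 51.7 and 50.4 in aging sham, and 71.8 and 49.9 in aging injured valves. In Cycs and Uqcrfs1 the highest of all libraries was young injured 3, followed by young sham 3.

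Of the complex V genes 13 of 15 were called, with a median slope of 0.46. All 5 genes of the F1 part, which holds the catalytic head and the central stalk, were called, and 8 of 10 of the membrane part and peripheral stalk. The 3 genes Atp5g1, Atp5g2 and Atp5g3 encode the same mature ring subunit behind different import signals, and their slopes spread from end to end of the complex. Atp5g1 had the steepest at 0.64 ± 0.05 and Atp5g2 the shallowest at 0.16 ± 0.06 (edgeR adjusted p = 0.213), with Atp5g3 at 0.48 ± 0.06 (edgeR adjusted p = 0.000764). Atp5g1 was at 149, 184 and 226 CPM in young sham, 81.7, 90.1 and 213 in young injured, 148, 71.5 and 78.9 in aging sham, and 117 and 123 in aging injured valves. Over the 11 libraries the highest value was 3.16 times the lowest for Atp5g1 and 1.66 times for Atp5g2. The difference between these slopes was not tested. Atp5g3 is named here because of its family.

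**Figure D2:**
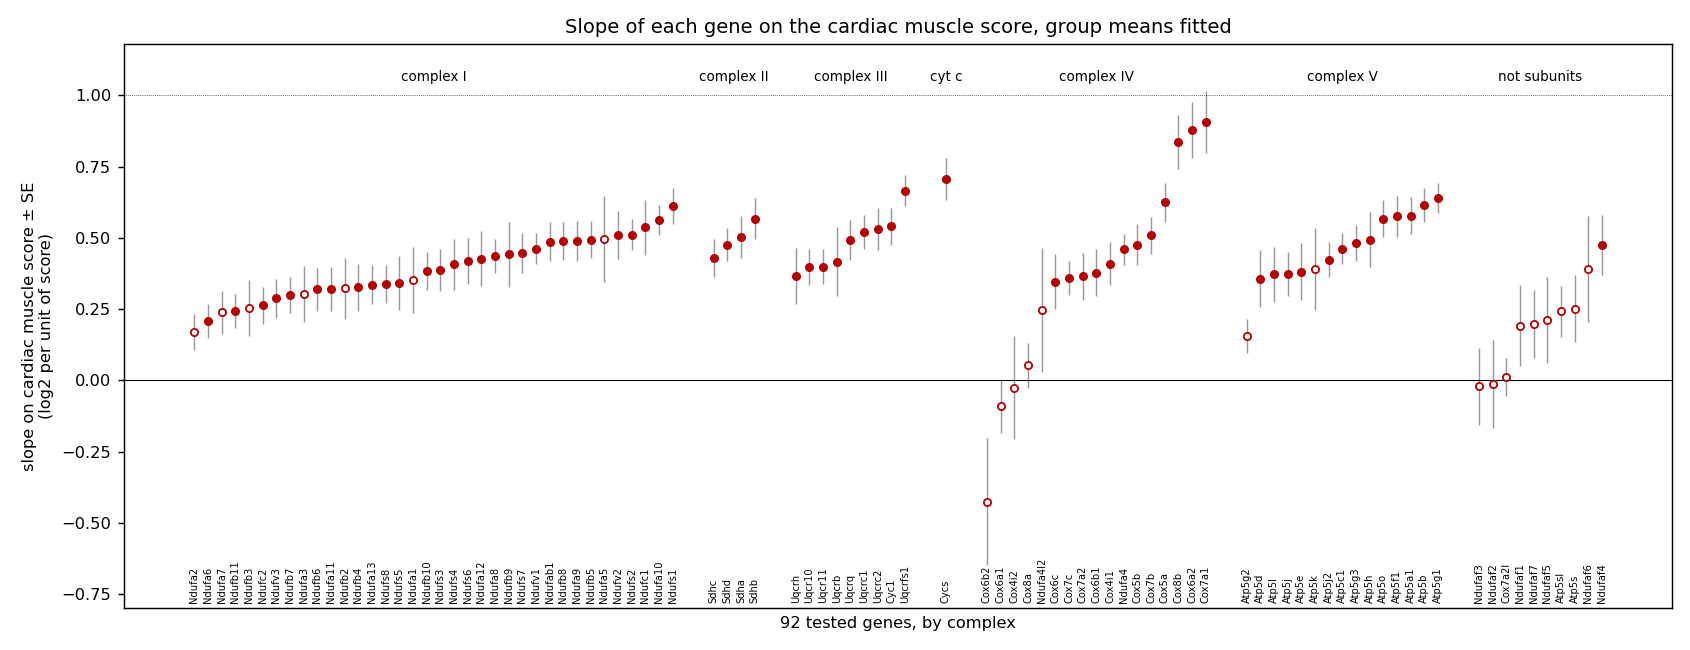
Slope of each of the 92 tested genes on the cardiac muscle score (vertical axis, log2 per unit of score) with its SE, grouped by complex along the horizontal axis and ordered by slope. Filled points had an edgeR adjusted p under 0.1 (69 genes, all positive) and open points did not; the muscle isoforms Cox8b, Cox6a2 and Cox7a1 are the 3 highest at 0.84 to 0.91, and Cox6b2 is the lowest at -0.43.

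Complex IV held both the steepest and the lowest slopes, and they divided by isoform. Over its 17 tested genes 12 were called, with a median of 0.38. The 3 muscle isoforms were all called: Cox7a1 at 0.91 ± 0.11 (edgeR adjusted p = 0.000515), Cox6a2 at 0.88 ± 0.10 (0.000331) and Cox8b at 0.84 ± 0.10 (0.000389). These were the 3 steepest of all 92. Of the 11 broadly expressed subunits 9 were called, with a median of 0.38. The 2 that were not were Cox6a1 at -0.09 ± 0.10 (edgeR adjusted p = 0.788) and Cox8a at 0.05 ± 0.08 (edgeR adjusted p = 0.870), the counterparts of Cox6a2 and Cox8b. Cox7a2, the counterpart of Cox7a1, was called at 0.36 ± 0.08 (edgeR adjusted p = 0.0314). The other restricted isoforms were not called, with Cox4i2 at -0.03 ± 0.18, Ndufa4l2 at 0.25 ± 0.22 and Cox6b2 at -0.43 ± 0.22 (edgeR adjusted p-values 0.984, 0.724 and 0.420). Cox7a2l had a slope of 0.01 ± 0.07 (edgeR adjusted p = 0.978).

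The 3 muscle isoform genes lie on chromosome 7 in mm10, Cox7a1 at chr7:30184171-30186028 (plus strand), Cox6a2 at chr7:128205435-128206387 (minus) and Cox8b at chr7:140898943-140900446 (minus). Their counterparts lie elsewhere, Cox7a2 at chr9:79755241-79759853, Cox6a1 at chr5:115345642-115348981 and Cox8a at chr19:7215158-7217616, all on the minus strand. Chromosome 7 carried 10 of the 94 genes. Among them, Cox6b1, a broadly expressed subunit at chr7:30616974-30626151, had a slope of 0.38 ± 0.08 and Cox6b2, at chr7:4751792-4753094, was not called. Cox6b1 is named for its position.

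The muscle isoforms spanned a wider range over the libraries than their counterparts. From the lowest to the highest library Cox6a2 spanned 5.80-fold, from 103 CPM in aging sham 2 to 598 CPM in young sham 3. Cox7a1 spanned 5.89-fold, from 13.6 CPM in young injured 1 to 80.4 CPM in young sham 3, and Cox8b 5.80-fold between the same libraries. Cox6a1 stayed between 77.4 and 148 CPM and Cox8a between 65.0 and 100.4 CPM, spans of 1.91-fold and 1.54-fold. Cox7a2 went from 37.0 to 72.0 CPM, 1.95-fold. The spans of the muscle isoforms were wider than those of every other tested member, Ndufa5 coming next at 5.51-fold.

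**Figure D3:**
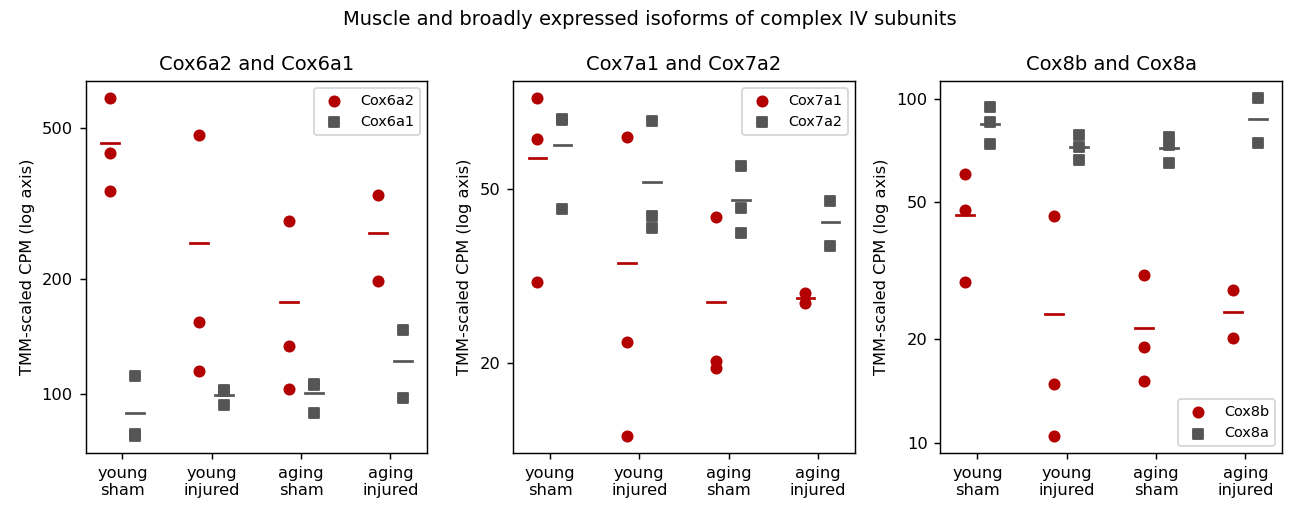
TMM-scaled CPM (log axis) of the muscle isoform (red circles) and the broadly expressed isoform (grey squares) of 3 complex IV subunits in each library, by group, with bars at the group means. The muscle isoforms spread over 5.80 to 5.89-fold across libraries, and Cox6a1 and Cox8a over 1.91-fold and 1.54-fold.

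A ratio within a library does not depend on how libraries are scaled. Per length, in the deposited RPKM, Cox6a2 was 1.00 to 7.88 times as high as Cox6a1, lowest in aging sham 2 and highest in young sham 3. The log2 ratio of their CPM was 1.60, 2.47 and 2.93 in young sham, 0.16, 0.61 and 2.35 in young injured, 1.43, -0.05 and 0.58 in aging sham, and 1.02 and 1.17 in aging injured valves. Young injured 3 lay with the young sham libraries and apart from the others of its group. The Cox7a1 to Cox7a2 ratio ran from 0.654 to 2.31 per length and the Cox8b to Cox8a ratio from 0.238 to 1.07, both lowest in young injured 1 and highest in young sham 3. Per length, the muscle isoform was level with or above its counterpart in all 11 libraries for Cox6a, while for Cox8 it was below its counterpart in 10 of 11.

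Within groups the 3 muscle ratios grew with the score. The slopes of the log2 ratio were 0.97 for Cox6a2 to Cox6a1, 0.55 for Cox7a1 to Cox7a2 and 0.79 for Cox8b to Cox8a, each with p = 0.00463 in an exact two-sided permutation test within groups (0.00772 adjusted over 5 pairs). With 432 permutations the smallest p possible is 0.00231. For Ndufa4l2 to Ndufa4 the slope was -0.22 (exact permutation p = 0.0370, adjusted 0.0463), and for Cox4i2 to Cox4i1 it was -0.42 (exact permutation p = 0.243). This test was added after the values were seen.

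The slopes could also be read in each age by itself, in libraries that share no mouse. In the 6 young libraries 66 of 92 genes were called, all positive, against 4.87% positive and 2.48% negative calls over all genes, and the median slope was 0.44. In the 5 aging libraries 0 were called among the members and 0 among all genes. There 32 of the 92 had an unadjusted p under 0.05 in edgeR's test, the median was 0.32 and 90 of 92 were positive. The shares of all genes at that p or with a positive slope were not counted in these libraries. Cox6a2 had a slope of 0.86 ± 0.08 in young and 0.91 ± 0.23 in aging libraries, Cox7a1 0.98 ± 0.13 and 0.73 ± 0.17, and Cox8b 0.92 ± 0.09 and 0.63 ± 0.20. Cox6a1 stood at -0.14 ± 0.09 and 0.02 ± 0.20. The edgeR adjusted p-values in the aging libraries were 0.640 or higher for these 4 genes. These fits were also chosen after the data were seen.

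**Figure D4:**
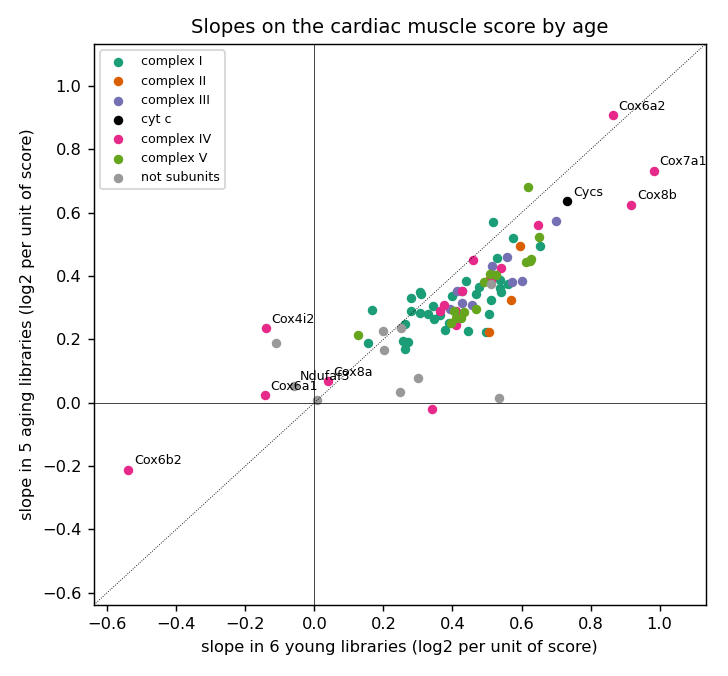
Slope of each of the 92 genes on the cardiac muscle score in the 6 young libraries (horizontal axis) and in the 5 aging libraries (vertical axis), both in log2 per unit of score, coloured by complex; the dotted line marks equal slopes. Cox6a2, Cox7a1 and Cox8b are at the upper right, and 90 of 92 genes are above 0 on the vertical axis.

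The number of called slopes rested on young injured 3. Without that library 14 of 92 were called, all positive, against 1.04% positive and 0.0104% negative calls over all genes, although the median slope was 0.40 as before and 89 of 92 were positive. Of those, Atp5g1 at 0.66 ± 0.09 and Uqcrfs1 at 0.60 ± 0.10 had the smallest edgeR adjusted p-values, 0.0161 and 0.0248, and Cox6a2, Cox7a1 and Cycs were also among the 14. Cox8b, the 4 Sdh genes, Ndufaf4 and the complex III genes other than Uqcrfs1 were not. Without the 3 libraries with fewer detected genes 75 were called, all positive, against 6.36% positive and 2.13% negative calls over all genes.

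With the score added to the group fit, the medians over the 92 genes came to between -0.05 and 0.02. The median log2 fold change of the 92 genes was 0.02 for injury in young valves, -0.00 for injury in aging valves, -0.02 for age in sham valves, -0.05 for age in injured valves and -0.03 for the interaction, with 0 called in each. Cox8b went from -0.95 to -0.34 ± 0.20 for injury in young valves, and Cox6a2 from -1.39 to -0.40 ± 0.22 for age in sham valves (edgeR adjusted p = 0.687 and 0.949). The muscle isoforms did not come closer to 0 as a group for age in injured valves: Cox6a2 went from 0.09 to 0.48 ± 0.20, Cox8b from 0.02 to 0.41 ± 0.20 and Cox7a1 from -0.26 to 0.13 ± 0.22 (edgeR adjusted p = 0.325, 0.381 and 0.836). For the interaction Cox6a2 stood at 0.87 ± 0.29 with the score (edgeR adjusted p = 0.556). Injury, age and cardiac muscle content cannot be told apart in these libraries where the score differs between groups.

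**Figure D5:**
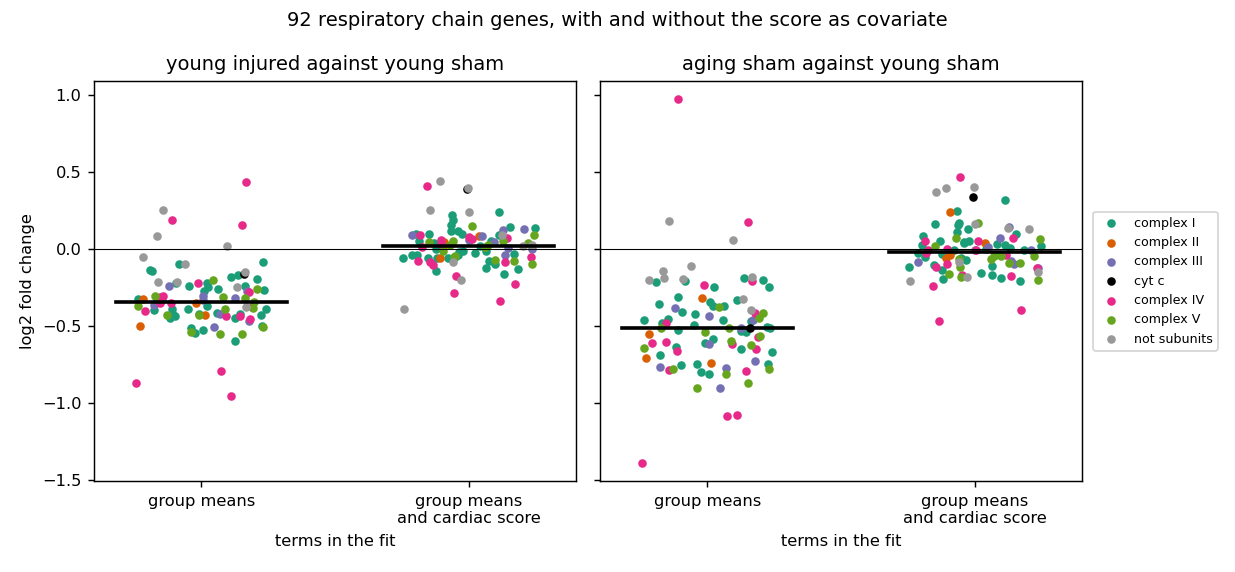
Log2 fold changes of the 92 genes (points, coloured by complex) for young injured against young sham valves and for aging sham against young sham valves, from the fit with group means and from the fit that adds the cardiac muscle score; bars are medians. The medians are -0.34 and -0.51 in the first fit and 0.02 and -0.02 in the second.

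Other mitochondrial pathways were read on the same slope, from lists chosen with earlier results of these data known. For the tricarboxylic acid cycle, which feeds electrons to the chain, 15 of 16 genes were called positive, with a median of 0.51. For fatty acid oxidation 14 of 15 were called, with a median of 0.57, and Cpt1b, the muscle carnitine transferase at the entry of fatty acids into mitochondria, stood at 1.08 ± 0.09 (edgeR adjusted p = 4.65e-05). For the exchange of ATP and creatine phosphate 7 of 8 were called, led by the mitochondrial creatine kinase Ckmt2 at 0.90 ± 0.08 (edgeR adjusted p = 6.03e-05). The 34 other assembly factors had 6 called and a median of 0.18.

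Among 13 regulators of mitochondrial genes 5 were called, namely Ppargc1a, Ppargc1b, Ppara, Esrra and Esrrg. Esrrg, an estrogen-related receptor of oxidative muscle, had a slope of 0.77 ± 0.09, and Ppargc1a, a coactivator of mitochondrial genes, 0.78 ± 0.10 (edgeR adjusted p = 0.000583 and 0.000607). Nrf1, Gabpa and Yy1, whose motifs were searched above, had -0.04 ± 0.09, 0.05 ± 0.06 and -0.07 ± 0.06 and were not called.

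Markers of other tissues moved with the score to different degrees. All 22 cardiac genes had positive slopes, from 0.41 to 1.58, and 19 were called. The score is the mean of these same genes, so their slopes are not independent of it. Smooth muscle markers had 3 of 6 called negative, with Lmod1 at -0.69 ± 0.17 (edgeR adjusted p = 0.0455), and their sum ran from 5588 to 23710 CPM. Adipocyte markers had 2 of 8 tested called positive, Cidea at 0.65 ± 0.16 and Fabp4 at 0.70 ± 0.18, and their sum ran from 60.6 to 580 CPM. Cox7a1 and Cox8b are also known from brown fat. In the list of brown and white adipocyte genes, Ucp1 was at 0 in 6 of 11 libraries and Elovl3 in 9. Cidea, of the same list, had counts in all 11 libraries, at 3.40 to 19.7 CPM. Of 5 skeletal muscle genes tested 2 were called, Ckm and Acta1, both made in the heart as well. The endothelial list had 1 of 6 called, Kdr at 0.82 ± 0.10, and the fibroblast and macrophage lists 0 of 6 each, with sums of 8515 to 17896 and 540 to 958 CPM. The part of these other cell types in the members' slopes was not tested.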

How the data were processed

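The authors deposited raw counts per gene, with Ensembl identifiers and coordinates, and RPKM values, scaled per length and library, for 13526 genes. Alignment used mm10 and TopHat2 2.1.0, per the submitters' processing notes; how reads were counted (tool, strand, annotation) is not given in the sources used here. Reads of overlapping genes and of pseudogene copies may therefore be misassigned. The count table held 1 library column that matched no sample and was not used. All 11 libraries entered 1 edgeR 4.0.16 quasi-likelihood fit (R 4.3.3, TMM scaling, filterByExpr with a minimum count of 10), with 4 group means and Benjamini-Hochberg adjustment over 19366 genes. The score used log2 CPM with a prior count of 2. Thresholds for group comparisons are those of the series' design text. The fits were tested on simulated data. DESeq2 1.42.0, no filter, totals without mitochondrial genes, a score from 6 genes, a replicate block and leaving out each library were the alternatives. Counts of library pairs in a group differed by a chi-square per degree of freedom of 20.9 to 228.4, so each library counted as 1 replicate. Genes named were the isoform pairs, Cycs, the Sdh genes, Cox7a2l, the highest in RPKM per complex, the 3 with the smallest p per comparison, the steepest and shallowest slope per complex and, of other lists, those with the smallest p; others were chosen after their values were seen. The members and lists were chosen with earlier results of these data known.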

Additional observations from a re-analysis of the deposited data

Results flagged for a closer look

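Among the named genes, 4 are listed here because every young injured library lay on one side of the young sham mean and every aging injured library on the other side of the aging sham mean. The interaction was 0.70 log2 for Ndufb4, 0.50 for Cox8a, -0.69 for Cox4i2 and 0.22 for Atp5g2. None passed edgeR's test of the interaction, with adjusted p-values of 0.663, 0.619, 0.758 and 0.846. Cox8a and Ndufb4 were also among the genes named for the smallest p in that test. For Atp5g2 the aging injured libraries, at 52.2 and 52.0 CPM, were close to the aging sham mean of 51.6 CPM. Such patterns were not counted over all genes.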

How the results depend on the processing

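Under DESeq2, no filter, totals without mitochondrial genes and the replicate block, 0 members were called in each of the 5 group comparisons. Leaving out 1 library gave 0 to 9 calls for injury in young valves. The 9 came without young injured 3, where 0.714% of all genes were called higher and 1.61% lower. For injury in aging valves, leaving out 1 library but keeping both aging injured libraries gave 0 calls, with 0% of all genes in edgeR's test. The median went from -0.36 to 0.22 for age in injured valves and from 0.20 to 0.72 for the interaction, the upper ends without young injured 3. With the score as covariate the medians were 0.0201 for injury in young valves, -0.0179 for age in sham valves and -0.0282 for the interaction. The called slopes numbered 69; they were 44 with the replicate block, all among the 69, 14 to 77 on leaving out 1 library (14 without young injured 3), and 0 in the aging libraries alone, where the median was 0.32. The score from 6 genes gave 70 and no group means 78. Over all genes, positive and negative calls were 4.71% and 1.72% in the main fit and 2.62% and 0.207% with the replicate block. They were 1.04% and 0.0104% without young injured 3, and 0% in the aging libraries alone. The score from 6 genes gave 4.72% and 1.68%, and no group means 6.6% and 2.42%. The upper end, 77, came without aging injured 2, which leaves that group with 1 library. Of 15 pairs of libraries with the same number, 1 had a correlation of deviations over 0.1 (range -0.13 to 0.25), so the numbers were not taken as pairs. The aging injured group has 2 libraries, which limits every comparison with it. No call changed direction under these settings. The causes of these differences were not tested.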
